A study of Mus musculus with 18 samples.

Results

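The promoters described here belong to the 84 nuclear genes named as subunits of the mitochondrial oxidative phosphorylation system, out of 26065 promoter windows measured in the series. They were chosen by gene symbol alone: the Nduf names for complex I, Sdha to Sdhd for complex II, the Uqcr names for complex III, the Cox names from Cox4 to Cox8 for complex IV and the Atp5 names for complex V. Complex I held 37 members, complex II 4, complex III 8, complex IV 18 and complex V 17, each with 1 window. The symbols also took in 3 genes that are not subunits: Cox7a2l, a factor of respiratory supercomplexes, and Atp5s and Atp5sl, a coupling factor and a relative of it.

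Accessibility was measured by ATAC-seq, which reads where a transposase can insert into open chromatin, in 18 libraries of nuclei from the central amygdala (CeA) and prefrontal cortex. The mice were C57BL/6J and 2 to 3 months old. SOM+ nuclei, those of somatostatin cells, came from SOM H2B-GFP mice of WT genotype and were sorted on green fluorescence. They were taken from control and fear-conditioned mice, with 2 libraries per region and condition, labelled male for replicate 1 and female for replicate 2. Bulk nuclei were sorted on the DNA stain NucBlue, so they hold every cell type of the dissected tissue. They came from mice with Erbb4 deleted in SOM+ cells (KO, 3 libraries in each region, labelled male throughout) and from WT mice (2 libraries per region, replicate 1 labelled female and replicate 2 male). The genotype entry of the WT bulk libraries names the knockout as well, and WT was read from their titles. Every library was made from 50000 nuclei. The sort is described in terms of technical replicates. In each SOM+ and KO group, replicate 2 had 0 counts at Y chromosome promoters and the other replicates had counts there. Replicate 2 of these groups was thus not from the same mice as the others. For KO replicates 1 and 3 and for the WT replicates this cannot be told. Adjusted p-values may still measure in part the spread between tubes and not between mice.

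Oxidative phosphorylation passes electrons from NADH through complex I, or from succinate through complex II, to ubiquinone, then through complex III and cytochrome c to complex IV, where oxygen is reduced. The proton gradient built on the way drives ATP synthesis by complex V. Neurons meet most of their energy demand this way, and all subunits outside a mitochondrially encoded core, which was not analysed here, come from nuclear genes whose start sites commonly hold sites for NRF1 and YY1 and for the ETS factor GABP.

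Promoter sequences from RefSeq (GRCm38.p6, windows reaching mostly upstream of the start site) matched 69 of the 84 members, with 75 entries. The NRF1 letters, GCGC and TGCGC with any 1 base between them, searched on both strands, stood in 24.0% of these entries and in 4.604% of the 32841 entries of all genes. The YY1 letters AAGATGGCG stood in 12.0% against 1.401%, the ETS letters CCGGAAGT in 6.667% against 3.888%, and the cAMP response letters TGACGTCA in 5.333% against 1.79%. By ratio, shares were closer for the SP1 letters GGGGCGGGG, with 16.0% against 11.446%, and for CCAAT, the box read by NF-Y, with 42.667% against 37.417%. TATAAA was in 10.667% of member entries and 13.617% of all. Median GC content was 57.3% in member entries and 52.7% in all. A match describes letters and not bound factors.

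The 150 bases before the start site are printed for 6 members that carry these letters or the results below: Cox6a1, Ndufb4 and Ndufs6 for NRF1, Uqcr11 for ETS, Ndufs8 with 3 CCAAT boxes, and Ndufa4, whose entry held none of the motifs searched and whose promoter moved against that of Ndufs8. Capitals mark the motifs, and all 6 promoters lie on the minus strand of GRCm38.p6. The positions are chr5:115348959-115349108 for Cox6a1, chr16:37654369-37654518 for Ndufb4, chr13:73328483-73328632 for Ndufs6, chr10:80406822-80406971 for Uqcr11, chr19:3912775-3912924 for Ndufs8 and chr6:11907451-11907600 for Ndufa4.
Cox6a1: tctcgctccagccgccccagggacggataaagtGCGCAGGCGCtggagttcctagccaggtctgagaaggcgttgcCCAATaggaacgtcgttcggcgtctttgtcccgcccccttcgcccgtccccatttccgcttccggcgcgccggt
Ndufb4: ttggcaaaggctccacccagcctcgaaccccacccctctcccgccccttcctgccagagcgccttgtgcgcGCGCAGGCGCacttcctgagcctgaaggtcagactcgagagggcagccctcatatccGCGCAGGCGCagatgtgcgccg
Ndufs6: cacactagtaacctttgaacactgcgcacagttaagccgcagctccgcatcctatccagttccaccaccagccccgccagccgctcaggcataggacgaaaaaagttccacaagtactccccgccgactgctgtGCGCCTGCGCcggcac
Uqcr11: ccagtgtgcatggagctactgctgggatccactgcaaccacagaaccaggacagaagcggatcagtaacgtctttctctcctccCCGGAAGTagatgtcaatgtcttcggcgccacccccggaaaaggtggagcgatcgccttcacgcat
Ndufs8: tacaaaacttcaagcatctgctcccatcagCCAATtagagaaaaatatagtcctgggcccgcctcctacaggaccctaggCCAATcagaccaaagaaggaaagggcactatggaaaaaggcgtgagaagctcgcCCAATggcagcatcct
Ndufa4: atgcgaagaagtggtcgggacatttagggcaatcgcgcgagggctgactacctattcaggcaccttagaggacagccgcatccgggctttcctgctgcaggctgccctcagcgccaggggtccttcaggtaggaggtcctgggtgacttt

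The YY1 letters lay mostly just after the start site. Of 9 matches, 7 lay after the start site, with the first base 23 to 36 bases downstream, and all 9 read in the direction of the gene. The letters contain ATG, and the 27 bases around each downstream match are printed to show their shared frame of AAGATGGCG, in capitals. They are Atp5j2 (chr5:145191501-145191527, minus strand), Atp5sl (chr7:25619431-25619457, plus), Ndufa9 (chr6:126849098-126849124, minus), Ndufc1 (chr3:51408916-51408942, minus), Ndufs4 (chr13:114388045-114388071, minus), Ndufs6 (chr13:73328433-73328459, minus) and Ndufs7 (chr10:80249464-80249490, plus).
Atp5j2: caggacttcAAGATGGCGtcactcggt
Atp5sl: ttacctggcAAGATGGCGgcgcccaga
Ndufa9: ttgtgggagAAGATGGCGgccgccgtc
Ndufc1: ctgcggaacAAGATGGCGccgtccgta
Ndufs4: tttgcctacaggAAGATGGCGgcggtc
Ndufs6: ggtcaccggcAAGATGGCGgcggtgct
Ndufs7: gccgaggccAAGATGGCGgcgctggcg

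Promoter count totals ran from 2648959 to 14668694 per library, and member counts from 13 to 2789, with none at 0. Of the 10 bulk libraries, 4 went against their labelled sex: replicate 2 of both KO groups, labelled male, had 0 counts at Y chromosome promoters, and replicate 1 of both WT groups, labelled female, had levels there, in CPM (counts scaled to a common library total), of 55.4 in CeA and 112 in cortex. For the main comparisons that use bulk libraries, the counts over all members are given with and without these 4 libraries. Counts within CeA, within cortex, by complex and of gene lists are given only with them. The GABAergic marker list was higher in SOM+ control than in bulk WT libraries at 5 of 5 promoters, and glutamatergic (7 of 8), astrocyte (5 of 6) and oligodendrocyte (6 of 7) promoters were lower. The somatostatin list had 1 promoter higher and 3 lower of 8, and Sst itself ranged from 5.79 to 13.2 in SOM+ control and from 6.45 to 10.8 in bulk WT libraries, with a log2 difference of 0.03 ± 0.23 that did not pass the test. Gad1, which makes GABA, ranged from 41.0 to 48.1 against 8.23 to 28.0. Open and closed promoters were also further apart in SOM+ libraries: the median of 81 cytosolic ribosomal protein promoters stood 53.4 to 73.0 times above that of 1117 olfactory receptor promoters in cortex SOM+, 17.4 to 34.3 times in CeA SOM+, 10.01 to 18.9 times in CeA bulk and 9.57 to 14.03 times in cortex bulk libraries. The part of this contrast, of the cell makeup and of the mouse lines in the differences below was not tested.

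The subunit promoters were among the open promoters of these nuclei. Levels are CPM after TMM scaling (a scaling that takes most promoters as unchanged) per kilobase of window. The median member stood at 29.5 and the median of all windows at 9.77. In all, 44 of the 84 lay above the 75th percentile of windows and 8 below the 50th. Complex V had the highest median at 37.8, followed by complex III at 33.9, complex I at 30.2, complex II at 25.1 and complex IV at 19.6. The most open were Ndufb5, a membrane-arm subunit of complex I, at 97.5, and Uqcrq, a small subunit of complex III, at 78.7, and the least open was Cox8c, a testis isoform of complex IV, at 3.08.

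The 8 members under the 50th percentile were all tissue-restricted isoforms. They were Cox4i2, Cox6a2, Cox6b2, Cox7a1, Cox7b2, Cox8b, Cox8c and Ndufa4l2, and their partners used in most tissues were more open in each of the 18 libraries. Cox4i1 exceeded Cox4i2, the lung and hypoxia isoform, 4.73 to 13.8 times, and Ndufa4 exceeded Ndufa4l2, known for its induction by hypoxia, 3.97 to 27.1 times. Cox8a exceeded Cox8b, the muscle isoform, 3.32 to 12.8 times, and Cox8c 4.19 to 15.4 times. Cox6b1 exceeded Cox6b2, the testis isoform, by no more than 1.61 to 4.18 times.

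The pair whose ratio shifted most between group medians was Cox7a2, used in most tissues, over Cox7a1, the heart and muscle isoform; it was chosen after its values were seen. Cox7a2 exceeded Cox7a1 1.76 to 3.18 times in cortex SOM+, 4.10 to 7.72 times in CeA SOM+, 5.28 to 15.2 times in CeA bulk and 7.52 to 27.7 times in cortex bulk libraries. The cortex SOM+ ratios did not overlap those of any other kind. Cox7a1 stood at 6.64 and 6.06 in control and at 5.596 and 9.86 in fear libraries of CeA SOM+ nuclei, 10.7 and 13.0 in cortex SOM+ control, 8.66 and 11.6 in cortex SOM+ fear, and between 2.34 and 6.74 in the 10 bulk libraries. For scale, the 90th percentile of olfactory receptor promoters, which are closed in brain, was 1.36 to 3.12 in SOM+ and 2.81 to 4.19 in bulk libraries, so the low isoforms stood near that floor in bulk nuclei.

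**Figure D1:**
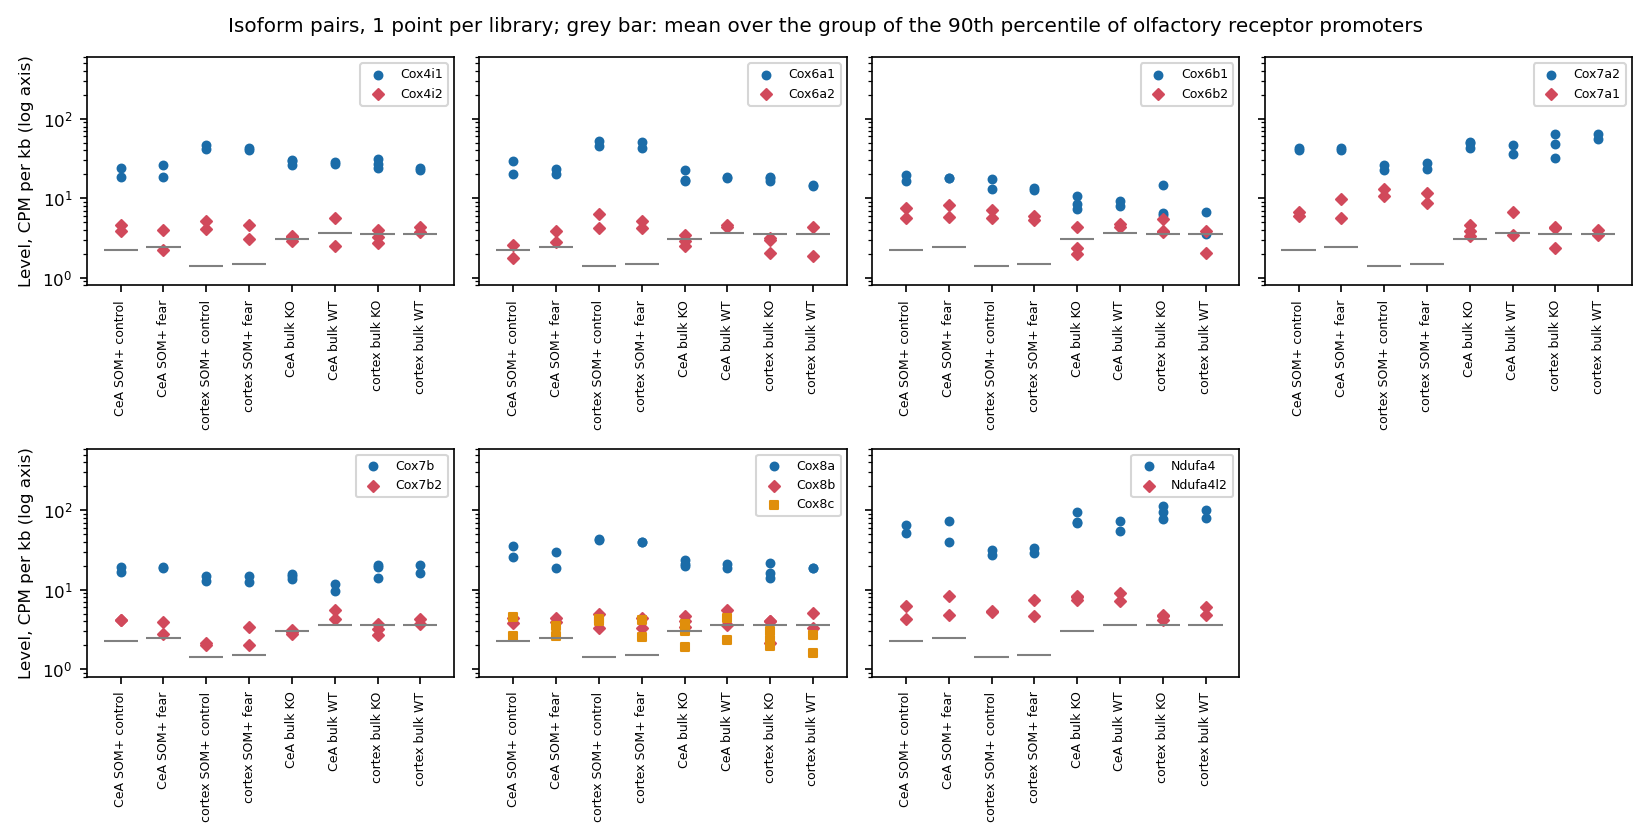
Promoter levels of isoform pairs of complex IV and of Ndufa4 and Ndufa4l2 in CPM per kilobase on a log axis, 1 point per library in the 8 groups, with grey bars for the group mean of the 90th percentile of olfactory receptor promoters. The isoform used in most tissues lay above its restricted partner in all 18 libraries, and Cox7a2 and Cox7a1 came closest in cortex SOM+ nuclei, at 1.76 to 3.18 times.

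The first comparison set SOM+ control nuclei against bulk WT nuclei over both regions, 4 libraries on either side. Complex III had the highest median log2 difference, 1.00, with 6 of its 8 promoters higher and 1 lower. Complex V had 9 higher and 3 lower of 17 (median 0.32), complex IV 7 and 2 of 18 (0.27), complex I 15 and 8 of 37 (0.17) and complex II 1 and 0 of 4 (0.09). Complexes are counted by symbol, so complex V includes Atp5s and Atp5sl, which are not subunits, and complex I includes Ndufa4. Without the 3 genes that are not subunits, the member median was 0.27, against 0.29 with them. Over all members 38 were higher and 14 lower at an adjusted p under 0.05, which is 61.9% called where 61.1% of all promoters were called (64.8% had an unadjusted p under 0.05). Of all promoters 30.6% were called higher and 30.6% lower, and the median was 0.29 for members and -0.07 for all. The share of members called was near the background, and the split leaned to higher.

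Set against all promoters, the lean of the median was nearly absent with loess, while the calls with loess still split towards higher. With total count scaling, which moved the median of all promoters to -0.27, 31 members were higher and 21 lower (median 0.10), and with cyclic loess scaling 32 were higher and 24 lower (member median 0.06, all promoters 0.06). Of all promoters, 24% were higher and 37.5% lower with total count scaling, and 29.3% and 27.8% with loess. The member median exceeded that of all promoters by 0.36 in the TMM fit and with total count scaling, and by 0.01 with loess. Total count scaling changes 1 factor per library and so shifts all promoters by nearly the same amount. The equal values of the TMM fit and total count scaling were thus set in advance. Without the 4 libraries against their sex label, 32 members were higher and 12 lower, where 25.2% and 23.4% of all promoters were. The median of complex III stayed above 0 under both, at 0.80 and 0.65, and those of complexes IV and V did too. The medians of complex I (-0.03 and -0.06) and complex II (-0.11 and -0.26) turned negative, where all promoters had -0.27 and 0.06. The groups did not overlap at 37 members, or 44%, against 38.2% of all promoters. Sort gate, mouse line and cell makeup differ together between these libraries and cannot be told apart, and in bulk nuclei fewer cells with an open promoter and a less open promoter per cell cannot be told apart either.

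**Figure D2:**
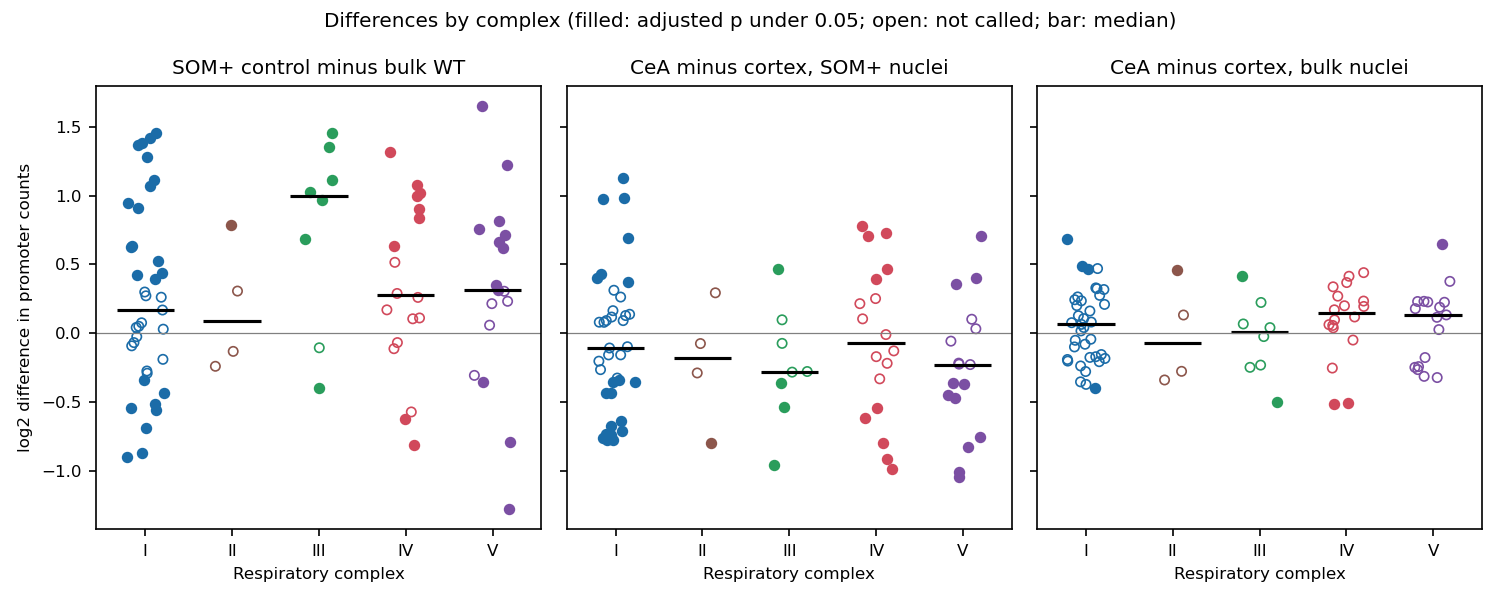
Log2 differences of the 84 promoters by respiratory complex for SOM+ control minus bulk WT, CeA minus cortex in SOM+ nuclei and CeA minus cortex in bulk nuclei. Filled points passed an adjusted p under 0.05, open points did not, and black bars are medians; complex III has the highest median in the first panel, at 1.00, and few points are filled in the third.

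In complex I the largest differences were those of Ndufs8 and Ndufv1, core subunits of the arm that takes electrons from NADH to ubiquinone. Ndufs8, which holds iron-sulfur clusters on that path (window mm9 chr19:3911775-3913774), stood at 39.8 and 48.1 in CeA SOM+ control, 75.9 and 87.6 in cortex SOM+ control, 26.5 and 26.2 in CeA bulk WT and 17.2 and 18.8 in cortex bulk WT libraries. Every SOM+ library lay above every bulk library. The log2 difference was 1.46 ± 0.14 (SE), with an edgeR quasi-likelihood adjusted p of 2.68e-11. Ndufv1, the NADH-binding flavoprotein, ran from 29.7 to 62.4 in SOM+ control and from 14.1 to 18.7 in bulk WT libraries, without overlap (1.42 ± 0.15). Ndufs7, which carries the last iron-sulfur cluster, was higher by 1.07 ± 0.16, and Ndufs3, a core subunit of the same arm, by 0.64 ± 0.14; the Ndufs3 call ended with cyclic loess scaling.

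The core subunits Ndufs1 (-0.27 ± 0.14) and Ndufv2 (0.26 ± 0.14) did not pass the test. Among accessory subunits, Ndufa2 (1.39 ± 0.14), Ndufb10 (1.37 ± 0.18) and Ndufa7 (1.28 ± 0.15) were higher. The window of Ndufa7 overlaps that of the ribosomal gene Rps28 (1.27) and that of Ndufa2 overlaps Ik (1.38), so reads of these pairs cannot be assigned to either gene. The window of Ndufs3 overlaps that of Kbtbd4 (0.63) in the same way.

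The opposite direction was led by Ndufa5, an accessory subunit of the same arm, at -0.90 ± 0.15, by Ndufa4 at -0.87 ± 0.15 and by Ndufa1 at -0.69 ± 0.16. The window of Ndufa5 overlaps that of Asb15 (-0.89) and that of Ndufa1 overlaps Rnf113a1 (-0.68). Ndufa1 lies on the X chromosome, where the median over 1009 promoters was -0.58, against -0.04 over autosomal promoters. Of these X promoters 46.1% were lower and 4.46% higher. Ndufa4 was first assigned to complex I and is now placed in complex IV. It stood at 66.1 and 51.6 in CeA SOM+ control, 31.3 and 27.2 in cortex SOM+ control, 54.7 and 72.6 in CeA bulk WT and 80.6 and 101 in cortex bulk WT libraries. The CeA libraries of both kinds overlapped and those of cortex lay far apart.

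Sdhb, the iron-sulfur subunit of succinate dehydrogenase, was the only member of complex II that passed the test, at 0.78 ± 0.14. Its levels were 21.3 and 26.4 in CeA SOM+ control, 40.2 and 44.1 in cortex SOM+ control, 21.8 and 22.9 in CeA bulk WT and 15.8 and 14.5 in cortex bulk WT libraries, so the groups separated in cortex alone. The flavoprotein Sdha gave -0.13 ± 0.15 and the membrane anchors Sdhc and Sdhd gave -0.24 ± 0.14 and 0.31 ± 0.15.

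In complex III the small subunit Uqcr10 had the largest difference, 1.46 ± 0.15 (edgeR adjusted p = 9.24e-11). It ranged from 38.5 to 66.7 in SOM+ control and from 14.1 to 23.9 in bulk WT libraries. Uqcrh, the hinge protein that helps cytochrome c bind, stood at 95.8 and 80.3 in CeA SOM+ control, 104 and 113 in cortex SOM+ control, 41.3 and 31.3 in CeA bulk WT and 38.6 and 40.9 in cortex bulk WT libraries (1.35 ± 0.16). Both separated completely in both regions. Their windows overlap those of Zmat5 (1.47) and Lrrc41 (1.36). Uqcrc1 (1.11 ± 0.15), a core protein, Uqcrb (1.03 ± 0.14), Uqcr11 (0.97 ± 0.16) and Uqcrq (0.68 ± 0.14) were higher too. The window of Uqcrb overlaps that of Gm10767 (1.03). The other core protein, Uqcrc2, gave -0.11 ± 0.15. Uqcrfs1, the Rieske iron-sulfur protein, was lower by -0.40 ± 0.15, a call that ended when any of 4 libraries was left out (CeA SOM+ control 2, cortex SOM+ control 2, CeA bulk WT 1 or cortex bulk WT 2) and when the libraries against their sex label were dropped or sex was taken from Y chromosome counts.

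In complex IV, Cox6b1 (1.32 ± 0.22), Cox6a1 (1.08 ± 0.15), Cox7a1 (1.02 ± 0.23), Cox5a (1.00 ± 0.15) and Cox8a (0.90 ± 0.15) were higher. Cox7c (-0.82 ± 0.16) and Cox7a2 (-0.63 ± 0.15) were lower, and Cox4i1, a regulatory subunit, gave 0.26 ± 0.14 without passing the test. Cox6a1 (mm9 chr5:115797965-115799964) stood at 20.2 and 29.4 in CeA SOM+ control, 46.0 and 52.0 in cortex SOM+ control, 18.2 and 18.7 in CeA bulk WT and 14.9 and 14.2 in cortex bulk WT libraries. SOM+ lay above bulk in both regions, narrowly in CeA. Cox5b (0.63 ± 0.14) lost its call with cyclic loess scaling, and Cox6b2 (0.84 ± 0.25) lost it with total count scaling and without CeA SOM+ control 1.

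In complex V, which has a catalytic head, a stalk and a membrane ring, Atp5k, subunit e of the membrane part, was higher by 1.23 ± 0.14 and Atp5d, the delta subunit of the stalk, by 0.76 ± 0.15. The largest value among the Atp5 symbols was that of Atp5sl, which is no subunit, at 1.65 ± 0.16. The catalytic beta subunit Atp5b gave 0.31 ± 0.15 and did not pass. The alpha subunit Atp5a1 (0.32 ± 0.13) lost its call under 7 of 16 alternatives and changed sign under cyclic loess scaling. The 7 were total count scaling, the dropping of the libraries against their sex label, and leaving out CeA SOM+ control 1, cortex SOM+ control 2, CeA bulk WT 2 or either cortex bulk WT library.

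Atp5j, coupling factor F6, was the lowest member at -1.28 ± 0.16 (edgeR adjusted p = 8.23e-09). It stood at 43.3 and 45.5 in CeA SOM+ control, 32.0 and 23.2 in cortex SOM+ control, 57.9 and 89.4 in CeA bulk WT and 84.3 and 117 in cortex bulk WT libraries. All SOM+ libraries lay below all bulk WT libraries. Its window overlaps that of Gabpa, the DNA-binding subunit of GABP, which gave -1.32 ± 0.16, and the reads of this shared promoter cannot be assigned to either gene. Atp5c1, the gamma subunit of the rotor, was lower by -0.79 ± 0.16 and shares its window with Kin (-0.79).

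**Figure D3:**
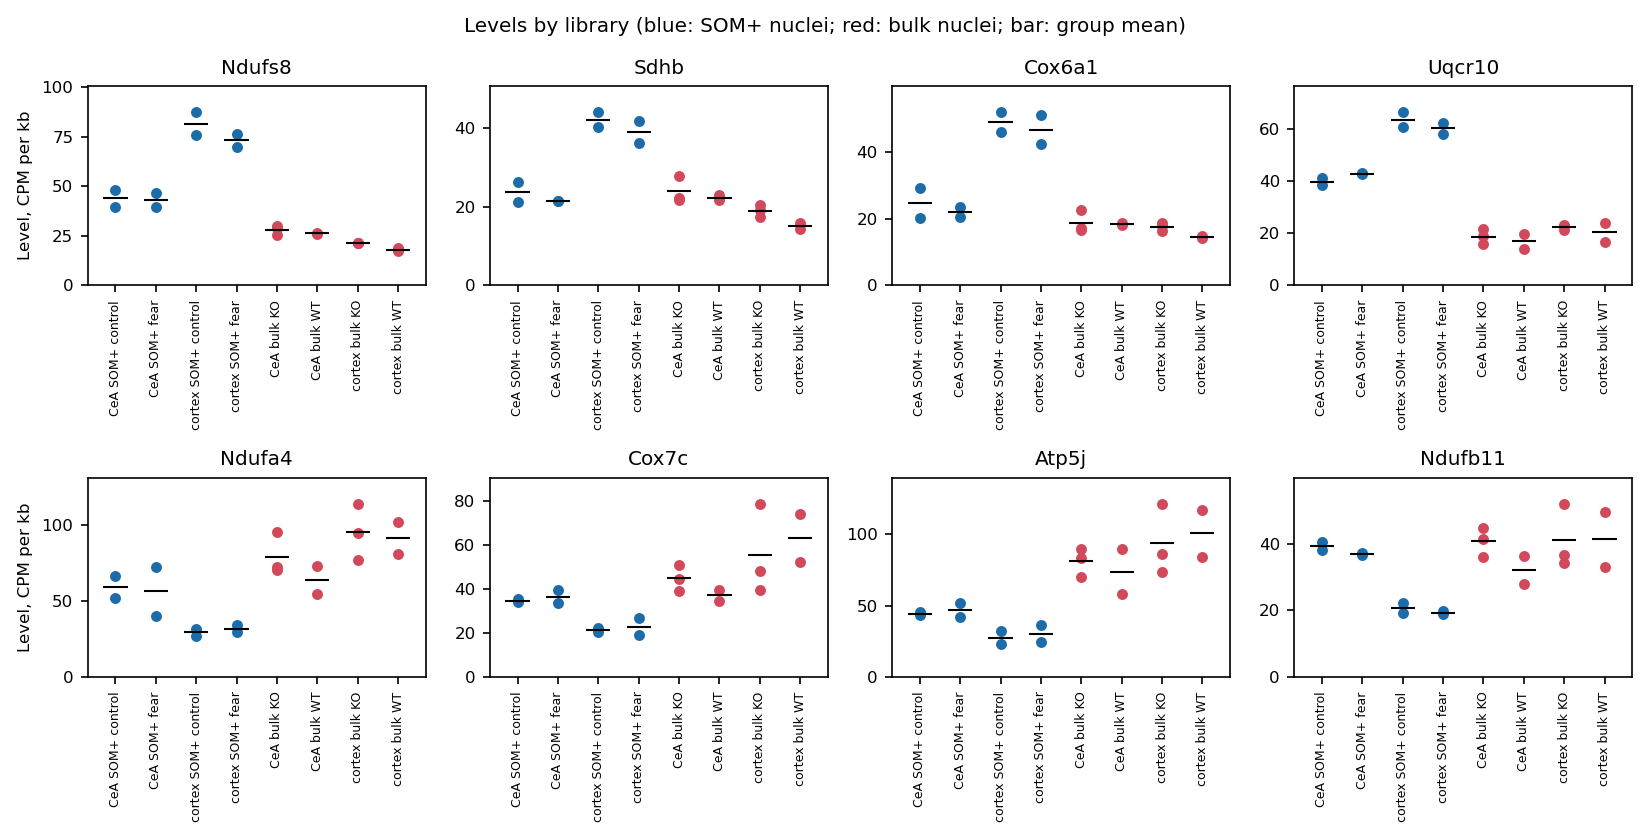
Levels in CPM per kilobase of 8 member promoters, 1 point per library and a bar at each group mean, with SOM+ nuclei in blue and bulk nuclei in red; each axis starts at 0. Ndufs8, Sdhb, Cox6a1 and Uqcr10 are highest in cortex SOM+ nuclei, and Ndufa4, Cox7c, Atp5j and Ndufb11 are lowest there.

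Within CeA, 18 members were higher and 3 lower in SOM+ control than in bulk WT nuclei (25% called, background 23.2%, with 13.7% of all promoters higher and 9.58% lower). Within cortex 40 were higher and 17 lower (67.9%, background 62.1%, with 31.5% higher and 30.6% lower, and 65.8% at an unadjusted p under 0.05). In both regions 15 were higher, among them Ndufs8, Ndufv1, Uqcr10, Uqcrh, Uqcrc1, Cox5a, Cox6b1 and Atp5k, and 2 were lower, Atp5j and Atp5c1. No member was called in opposite directions. Uqcrb, Ndufa3, Cox7b and Ndufa9 were called in CeA and not in cortex, and the difference between regions passed its own test for the first 3.

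The size of the SOM+ difference itself differed between regions at 28 members, 11 with a higher value in CeA and 17 with a lower one (33.3% called, background 24.7%, with 9.46% and 15.2% of all promoters in these directions). For Ndufs8 the log2 difference was 0.73 ± 0.19 in CeA and 2.18 ± 0.19 in cortex, which differ by -1.45 ± 0.27 (edgeR adjusted p = 0.000193). Sdhb gave 0.09 ± 0.20 and 1.48 ± 0.19 (difference -1.39 ± 0.28), Cox6a1 0.41 ± 0.21 and 1.75 ± 0.21 (-1.34 ± 0.29), and Cox4i1 -0.39 ± 0.20 and 0.91 ± 0.20 (-1.30 ± 0.28). In these 4 the SOM+ value was larger in cortex, and in CeA Ndufs8 passed the test while Sdhb, Cox6a1 and Cox4i1 did not.

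In the other direction, Ndufa4 gave -0.11 ± 0.21 in CeA and -1.63 ± 0.22 in cortex (difference 1.52 ± 0.30, edgeR adjusted p = 0.000352), Cox7c -0.10 ± 0.23 and -1.53 ± 0.23 (1.44 ± 0.32), and Ndufb11 0.31 ± 0.21 and -0.99 ± 0.21 (1.29 ± 0.30). Uqcrb had an excess that was larger in CeA, at 1.65 ± 0.21 against 0.41 ± 0.20 (1.23 ± 0.29). It stood at 64.4 and 41.6 in CeA SOM+ control, 34.99 and 39.2 in cortex SOM+ control, 16.4 and 17.1 in CeA bulk WT and 25.3 and 31.0 in cortex bulk WT libraries. These 8 genes held their call under each alternative run, and of the 23 members named for this comparison they were the only ones. The windows of Ndufb11, Uqcrb and Cox4i1 overlap those of Rbm10 (1.28), Gm10767 (1.21) and Emc8 (-1.31). Dropping the 4 libraries against their sex label, which leaves 1 bulk WT library per region, left 4 higher and 6 lower, where 3.89% and 5.65% of all promoters were.

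**Figure D4:**
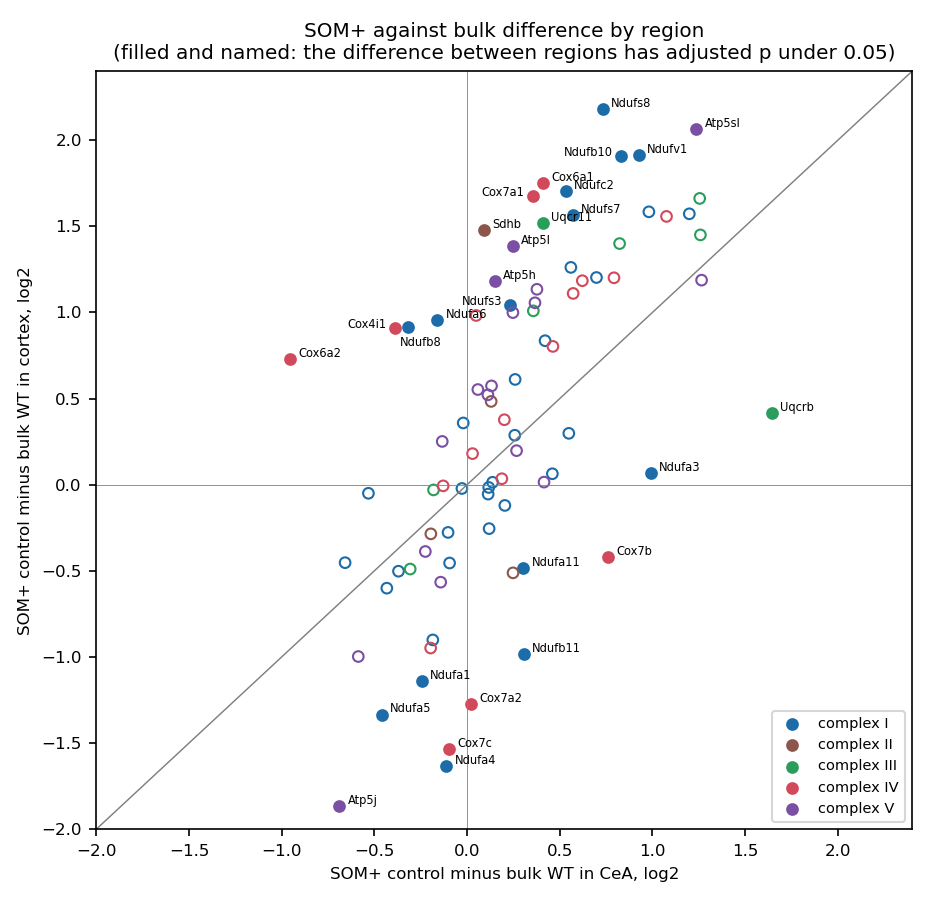
SOM+ control minus bulk WT log2 difference of each of the 84 promoters in CeA (horizontal axis) and in cortex (vertical axis), coloured by complex, with the line of equality. Named, filled points are the 28 whose difference between regions passed an adjusted p under 0.05; Ndufs8 reaches 2.18 in cortex and 0.73 in CeA, and Ndufa4 lies at -1.63 and -0.11.

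The second comparison set CeA against cortex. In SOM+ nuclei (4 libraries per region, control and fear together) 16 members were higher in CeA and 30 lower, or 54.8% called where 48.3% of all promoters were called, 21.1% higher and 27.1% lower. The median was -0.16 for members and 0.04 for all. By complex, 7 were higher and 13 lower in complex I, 0 and 1 in complex II, 1 and 3 in complex III, 5 and 5 in complex IV, and 3 and 8 in complex V. Total count scaling, which moved the median of all promoters to 0.26, turned the split to 27 higher and 18 lower, and cyclic loess to 27 and 19. Of all promoters, 31.4% were higher and 19.6% lower with total count scaling, and 20.9% and 21.1% with loess. The member median minus that of all promoters was -0.21 in the TMM fit and with total count scaling, and 0.06 with loess. As in the first comparison, the equality of the TMM and total count values was set in advance. In all, 19 of the 33 members named for this comparison held their own call under each alternative run. The groups did not overlap at 35 members, 41.7% against 43.8% of all promoters. Marker lists moved with region too: the somatostatin list had 5 of 8 promoters lower in CeA and 1 higher (median -0.96), the glutamatergic list 4 of 8 lower, and the oligodendrocyte list 2 of 7 higher. Their part in the results was not tested.

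Ndufa3, an accessory subunit of complex I, had the largest excess in CeA, at 1.13 ± 0.15 (edgeR adjusted p = 4.25e-12). The errors and p-values of this fit rest on a spread pooled over promoters and not on each promoter's own scatter. It stood at 21.8, 27.7, 21.9 and 23.7 in the CeA SOM+ libraries and at 11.8, 10.5, 10.4 and 12.0 in those of cortex. The values did not overlap, and bulk nuclei of both regions (9.48 to 18.7) were near the cortex SOM+ values. Its window overlaps that of Oscar, which differed less (0.74 ± 0.22). Ndufa4 (0.98 ± 0.15), Cox7a2 (0.78 ± 0.15), Cox7c (0.73 ± 0.15) and Atp5j (0.70 ± 0.15) were higher in CeA as well.

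Lower in CeA were Atp5h, subunit d of the peripheral stalk (-1.01 ± 0.15), Cox6a1 (-0.99 ± 0.15), Uqcr11, a small subunit of complex III (-0.96 ± 0.15), Cox4i1 (-0.91 ± 0.15), Sdhb (-0.80 ± 0.15) and Ndufs8 (-0.78 ± 0.16). Uqcr11 stood at 14.74, 18.1, 16.1 and 15.5 in CeA SOM+ and at 28.6, 38.6, 26.3 and 35.7 in cortex SOM+ libraries, with no overlap. Atp5h shares its window with Kctd2 (-1.02) and Cox4i1 with Emc8 (-0.92). Ndufv1 was lower as well (-0.71 ± 0.15), and the calls of the core subunits Ndufs8 and Ndufv1 held under each of the 13 alternatives run. The core subunits Ndufs3 (-0.43 ± 0.15), Ndufs7 (-0.43 ± 0.15), Uqcrc1 (-0.36 ± 0.15) and Atp5b (-0.47 ± 0.15) also passed the test. Each of these 4 lost its call under both other scalings and when CeA SOM+ control 1, cortex SOM+ control 2 or cortex SOM+ fear 2 was left out.

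The 3 members on the X chromosome, Ndufb11 (0.98 ± 0.15), Ndufa1 (0.69 ± 0.16) and Cox7b (0.47 ± 0.15), were all higher in CeA SOM+ nuclei. Ndufb11 stood at 38.2, 40.4, 37.2 and 36.7 in CeA SOM+ and at 22.1, 19.2, 18.8 and 19.7 in cortex SOM+ libraries. The whole chromosome moved with them: the median over 982 X promoters was 0.70, with 57% called higher, against 0.01 over autosomal promoters. X promoters took 1.36% to 1.45% of the promoter level in cortex SOM+, 2.24% to 2.49% in CeA SOM+ and 2.45% to 3.08% in bulk libraries. Ndufb11 lay above the X median and Cox7b below it. The windows of Ndufb11 and Ndufa1 overlap those of Rbm10 (0.99) and Rnf113a1 (0.71). The Cox7b call ended without cortex SOM+ fear 1.

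In bulk nuclei (5 libraries per region, KO and WT together) 6 members were higher in CeA and 4 lower, 11.9% called against a background of 16.9% (6.9% higher and 9.98% lower). Higher were Ndufs8 (0.49 ± 0.12), Ndufs7 (0.47 ± 0.15), Sdhb (0.46 ± 0.13), Atp5l, subunit g of complex V (0.65 ± 0.17), Ndufa4l2 (0.69 ± 0.18) and Uqcrq (0.42 ± 0.13). Lower were Uqcrb (-0.50 ± 0.12), Cox7b (-0.52 ± 0.14), Cox7c (-0.51 ± 0.16) and Ndufa8 (-0.40 ± 0.13). The windows of Uqcrb and Ndufa8 overlap those of Gm10767 (-0.49) and Morn5 (-0.38). Cox7b lies on the X chromosome, where the median was -0.18, against 0.04 over autosomal promoters. Ndufs8 stood at 25.6, 28.9, 29.9, 26.5 and 26.2 in CeA bulk and at 21.4, 21.6, 21.4, 17.2 and 18.8 in cortex bulk libraries, without overlap.

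None of these 10 calls held under each alternative. No member was called higher when any of the 4 WT libraries was left out, and none was called in either direction when the 4 libraries against their sex label were dropped, where Ndufs8 gave 0.47 and Sdhb 0.56. Of all promoters, 0.744% to 2.37% were called higher without 1 WT library, and 0.723% higher and 1.84% lower without those 4. Without cortex bulk KO 1 the count rose to 12 higher and 14 lower, and that of all promoters to 11.5% and 16.3%. Groups did not overlap at 8 members, 9.52% against 10.1% of all promoters. The CeA bulk nuclei had more GABAergic (3 of 5 promoters higher) and less glutamatergic signal (7 of 8 lower) than those of cortex, and the part of this in the results was not tested.

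Of the 10, 7 were called in SOM+ nuclei too, each in the opposite direction. Ndufs8, Ndufs7, Sdhb and Atp5l were higher in CeA bulk and lower in CeA SOM+ nuclei, and Uqcrb, Cox7b and Cox7c were the reverse. No member was called in the same direction in both. Of all promoters, 2412 were called in both comparisons, 1351 of them (56%) in opposite directions. These regional differences in SOM+ and bulk nuclei come from separate libraries. The test of the difference between kinds of nuclei, which uses the control and WT libraries alone, passed for all 7. For Ndufs8, Sdhb, Uqcrb and Cox7c it did so under each alternative run. The control and WT libraries helped pick the 7, so passing was largely set in advance and adds no separate support. The call of Uqcrb in SOM+ nuclei ended without CeA SOM+ control 1 or CeA SOM+ fear 1.

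**Figure D5:**
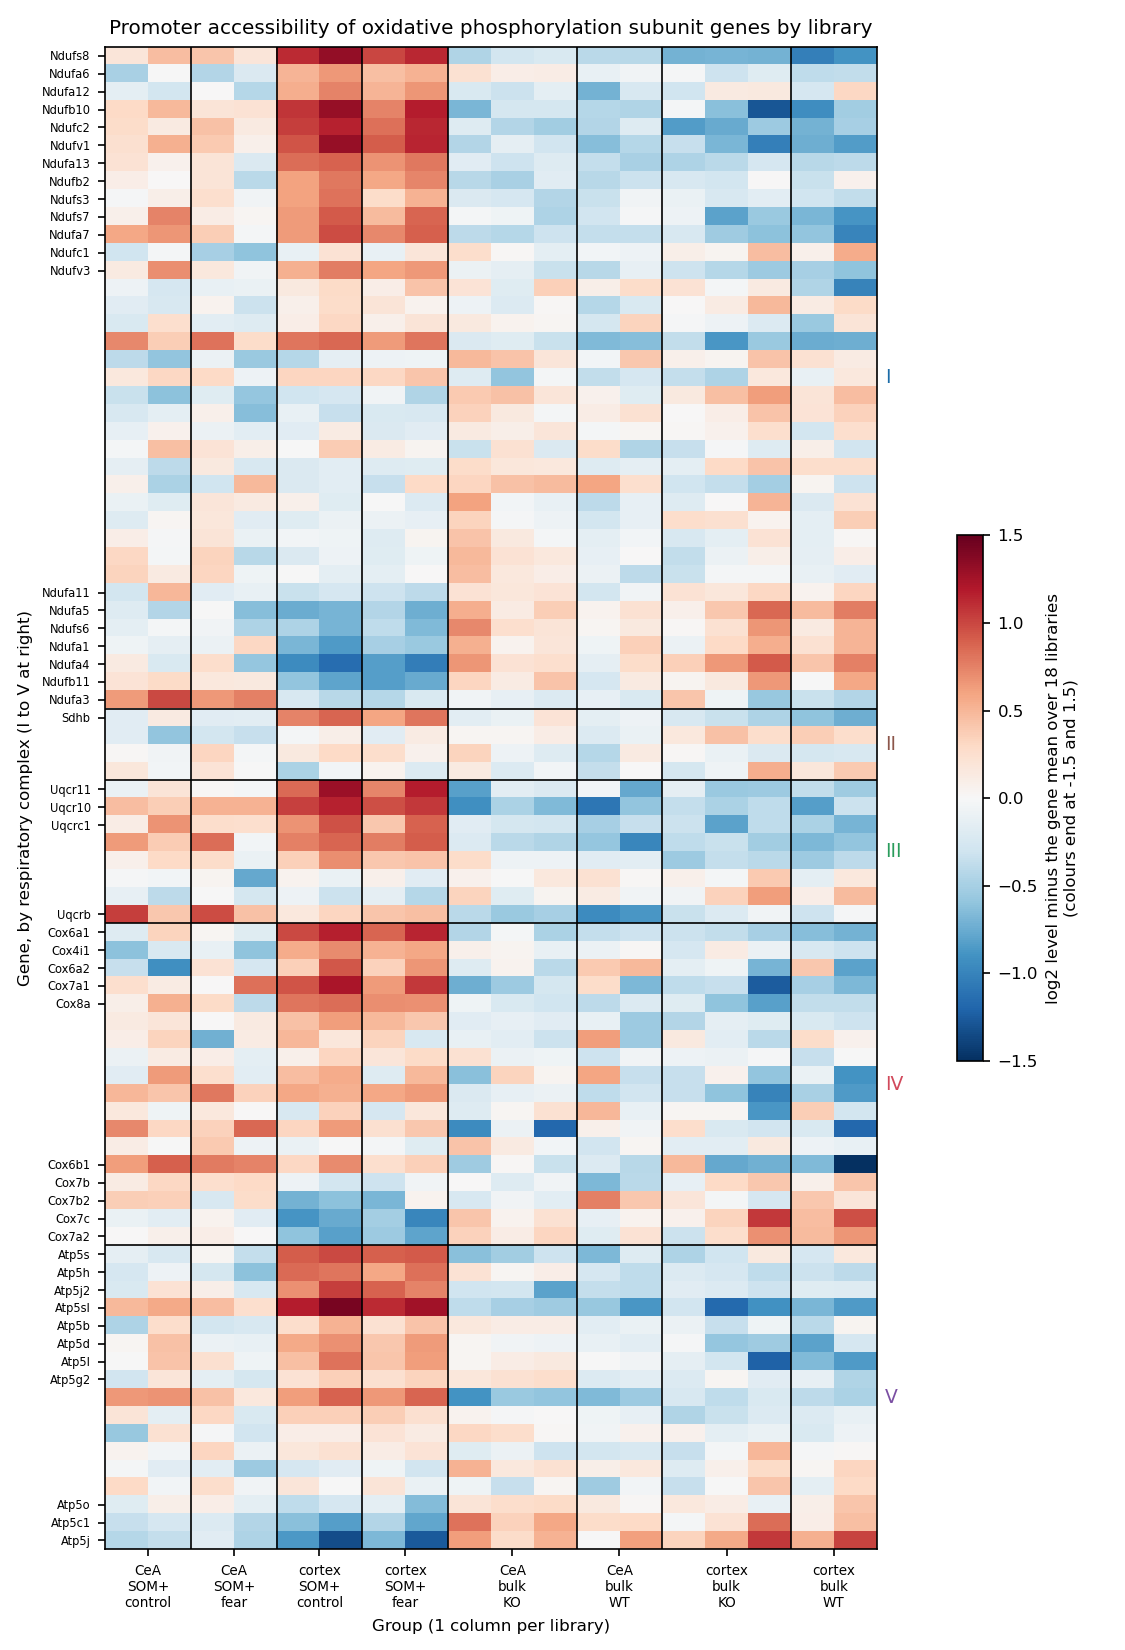
Log2 level of each of the 84 promoters minus its mean over the 18 libraries (red above, blue below, colours ending at -1.5 and 1.5), with 1 column per library in 8 groups and genes ordered within complexes I to V by their CeA minus cortex difference in SOM+ nuclei; the 46 rows with a name passed the test of that difference. The 4 cortex SOM+ libraries stand apart from the rest, in both directions, and no difference between control and fear libraries passed the test.

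The third comparison asked whether fear conditioning altered these promoters in SOM+ nuclei. None of the 84 was called by edgeR (background 0%), and none by DESeq2 or limma. No member reached an unadjusted p under 0.05, where 530 of all promoters (2.11%) did. Differences averaged over regions ran from -0.37 to 0.24. The smallest p-values were those of Ndufa1 (0.24 ± 0.16), Cox4i2 (-0.37 ± 0.25) and Ndufs7 (-0.22 ± 0.15). Ndufa1 stood at 18.0 and 17.2 in CeA control, 17.7 and 23.3 in CeA fear, 11.8 and 10.5 in cortex control and 13.4 and 12.9 in cortex fear libraries, with overlap in CeA. No change was detected, which does not show that the promoters were equal.

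The fourth comparison asked the same of the loss of Erbb4, the neuregulin receptor of interneurons, in SOM+ cells. Bulk nuclei hold these cells among all others. The labels do not say which part of the gene was removed, so its promoter window (-0.27 ± 0.19 in KO) is no check of the deletion. No member was called by edgeR (background 0%), DESeq2 or limma, and none without the libraries against their sex label, and 4 had an unadjusted p under 0.05, as did 872 of all promoters (3.46%). They were Uqcrh (0.41 ± 0.17), Cox6b1 (0.75 ± 0.33), Atp5g2 (0.37 ± 0.17) and Ndufb8 (0.48 ± 0.23). Only WT replicate 1 was labelled female, a label its Y chromosome counts went against. With the sex term, the mean KO differences therefore rest on WT replicate 2 of each region and not on both WT libraries. Without a sex term no promoter was called, and the member median was 0.13 in place of 0.06. Cox6b1 stood at 7.33, 10.7 and 8.44 in CeA KO, 9.21 and 7.96 in CeA WT, 14.8, 6.25 and 6.45 in cortex KO and 6.68 and 3.59 in cortex WT libraries, and the genotypes overlapped in both regions.

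Sequence groups were set beside the SOM+ control against bulk WT difference as a description, in the TMM fit alone. In that fit 30.6% of all promoters were higher and 30.6% lower. The 17 members with NRF1 letters had a median of 0.05, with 6 higher and 4 lower, and the 52 without had 0.48, with 28 and 9. The 31 members with a CCAAT box had a median of 0.67, with 19 higher and 3 lower, and the 38 without had 0.27, with 15 and 10. All 5 members with the ETS letters, Atp5h, Cox8a, Ndufs3, Uqcr11 and Uqcrh, were higher (median 0.90), against 29 higher and 13 lower of the 64 without (0.29). Of the 5, 4 were lower in CeA than in cortex SOM+ nuclei (median -0.55), as were 24 of the 64 without and 27.1% of all promoters. The windows of Atp5h, Ndufs3 and Uqcrh overlap those of Kctd2, Kbtbd4 and Lrrc41, and the Ndufs3 call in SOM+ against bulk ended with loess scaling. The 8 members with YY1 letters had 3 higher and 3 lower (median -0.08), the 12 with SP1 letters 7 and 0 (0.38), and the 4 with cAMP response letters 1 and 1 (0.04). The difference had a Pearson correlation of -0.11 with GC content over 69 members and of -0.05 with the log2 level over 84, across genes that share these libraries.

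Genes that build, feed and regulate the system were read from lists beside the subunits. Between SOM+ control and bulk WT nuclei, the assembly factors of complex IV had 15 of 22 promoters higher and 3 lower, and those of complex III 5 of 6 higher and none lower, where 30.6% of all promoters were called in each direction. Both lists kept a median above 0 under each scaling. Complex III was led by Uqcc1 (2.06 ± 0.16) and Ttc19 (1.35 ± 0.14), and complex IV by Coa4 (1.63 ± 0.14) and Cox16 (1.31 ± 0.14). The complex V list had 3 of 4 higher and none lower, including Atpif1, the inhibitor that stops ATP hydrolysis (1.38 ± 0.15), with 1 lower under total count and loess scaling. Regulators of mitochondrial biogenesis and mitochondrial DNA had 12 of 20 higher and 3 lower. Pprc1, a coactivator related to Ppargc1a, was higher (1.45 ± 0.15), as was Tfb2m, a mitochondrial transcription factor (1.35 ± 0.15), and Gabpa was lower, on the window it shares with Atp5j.

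Complex I assembly factors had 5 of 14 higher and 2 lower, and the median of that list, 0.12, turned to -0.08 and -0.16 with total count and loess scaling (all promoters -0.27 and 0.06). The complex II list had 1 higher, Sdhaf1 (1.41 ± 0.14), and 2 lower of 4. Electron carriers and adenylate exchange had 9 of 22 higher and 4 lower (median 0.04, turning to -0.16 and -0.10). The citric acid cycle had 9 of 18 higher and 6 lower (8 and 8 with total count scaling, 6 and 8 with loess), with Idh2 (1.19 ± 0.14) and Dlst (1.12 ± 0.14) higher and Suclg1 (-0.90 ± 0.15) lower. Glycolysis had 10 of 17 higher and 3 lower. Pkm, pyruvate kinase, was higher (1.33 ± 0.15), and Hk2, a hexokinase, had the lowest value of the genes named from these lists (-2.15 ± 0.21).

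Between CeA and cortex SOM+ nuclei, the complex IV assembly list had 2 promoters higher and 11 lower of 22, the biogenesis list 2 and 13 of 20, the citric acid cycle 1 and 8 of 18 and glycolysis 2 and 6 of 17, where 21.1% of all promoters were higher and 27.1% lower. Electron carriers had 4 and 6 of 22, and the assembly lists of complex I 4 and 3 of 14 (median 0.11), complex II 1 and 1 of 4, complex III 1 and 4 of 6 and complex V 1 and 2 of 4. The medians of the complex IV list, -0.34, and of the biogenesis list, -0.48, stayed below 0 under each scaling. The citric acid cycle split became 6 and 6, and the glycolysis split 7 and 3 with total count and 7 and 2 with loess scaling, beside 31.4% and 19.6%, and 20.9% and 21.1%, of all promoters. Mdh2 (-1.23 ± 0.16) and Idh3b (-1.13 ± 0.15) of the citric acid cycle and Taco1 (-1.01 ± 0.15), which activates translation of a mitochondrial complex IV subunit, were lower in CeA, and Sdhaf3 (0.97 ± 0.15) was higher. In bulk nuclei, where 6.9% of all promoters were higher in CeA and 9.98% lower, the complex I assembly list had 1 higher and 4 lower of 14 and the complex III list 2 higher and none lower of 6. Each of the other lists had between 0 and 2 called in either direction.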

How the data were processed

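The authors deposited raw counts of reads in windows reaching 1 kb to each side of a start site (mouse build mm9), with 1 column per library. Trimmomatic 0.32, Bowtie2, MACS2, Picard 1.88 and bcl2fastq 2.16.0.10 are named per the submitters' processing notes. How reads were counted, shifted for Tn5 and cleared of duplicates is not given in the sources used here. Of 26728 entries, 663 repeated a window and were left out, and 1435 of the 26065 kept were wider than 2000 bases. Of the members, 29 have a window that overlaps another gene's and 55 do not, and 7 are wider than 2000 bases. All 84 members passed the filter in each fit.

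Counts were tested with edgeR 4.0.16 (R 4.3.3) through the quasi-likelihood test, after TMM scaling and filterByExpr (minimum count 10, minimum total 15). Benjamini-Hochberg adjustment ran over every promoter of a fit, and a call is an adjusted p under 0.05. SOM+ against bulk was fitted on all 18 libraries (25246 promoters), region and fear on the 8 SOM+ libraries (25157), region and KO on the 10 bulk libraries (25196); fits with bulk libraries held labelled sex as a term. Errors of differences are standard errors. In the SOM+ fit, p-values matched a normal distribution despite 4 residual degrees of freedom, so the spread was pooled over promoters. Errors and p-values for region and fear in SOM+ nuclei therefore do not measure each promoter's own scatter between libraries. Alternatives were DESeq2 1.42.0, total count scaling, limma 3.58.1 with cyclic loess scaling, no filter, subsets of members, no sex term, a sex term from Y-linked promoters, a replicate block and leaving out libraries. The fits were checked on simulated data.

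Named members were, per comparison, those called with the lowest p-values (at most 3 per complex and direction), the isoform sets, the catalytic core subunits, and the highest and lowest of each complex; other genes came from the lists of assembly factors, electron carriers, biogenesis regulators, citric acid cycle and glycolysis, or overlap a member's window. Some genes that this rule names are not reported here. Where none was called, the 3 with the lowest p-values were named. The members and lists were chosen with earlier results of these data known. No replicate number was shown to pair libraries: same-numbered libraries of different groups correlated at -0.40 to 0.45 after removal of the group means. Between regions, the value was 0.40 for WT and -0.26, 0.27 and -0.04 for KO replicates 1, 2 and 3. It was 0.16 for SOM+ control and 0.05 for SOM+ fear. The libraries against their sex label had the same numbers in both regions. Whether the regions share mice was not tested.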

Additional observations from a re-analysis of the deposited data

Results flagged for a closer look

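The SOM+ control against bulk WT difference was tested for a difference between CeA and cortex, and 28 members passed at an adjusted p under 0.05 (edgeR). Values are the log2 difference in CeA minus that in cortex. In complex I, Ndufs8 gave -1.45, Ndufb8 -1.23, Ndufc2 -1.17, Ndufa6 -1.12, Ndufb10 -1.08, Ndufs7 -1.0, Ndufv1 -0.99 and Ndufs3 -0.81. The complex I members with the opposite sign were Ndufa4 at 1.52, Ndufb11 at 1.29, Ndufa3 at 0.93, Ndufa1 at 0.89, Ndufa5 at 0.87 and Ndufa11 at 0.79. Sdhb of complex II gave -1.39. In complex III, Uqcr11 gave -1.11 and Uqcrb 1.23. In complex IV, Cox6a2 gave -1.68, Cox6a1 -1.34, Cox7a1 -1.32 and Cox4i1 -1.30, while Cox7c gave 1.44, Cox7a2 1.30 and Cox7b 1.18. In complex V, Atp5l gave -1.14, Atp5h -1.03 and Atp5sl -0.83, and Atp5j gave 1.18.

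Ndufb11, Ndufa1 and Cox7b lie on the X chromosome, where the median over 1009 promoters was 0.88, against -0.07 over autosomal promoters. Cox6a2 and Cox7a1 were low isoforms; the Cox6a2 call ended without CeA SOM+ control 2, cortex SOM+ control 2, CeA bulk WT 2 or cortex bulk WT 2, and that of Cox7a1 without any of 6 libraries.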

How the results depend on the processing

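Of 224 values of the main counts under alternatives, 183 stayed within 1.5 times of the main count. The fear and KO counts, 0 in the main fit and under each alternative, are among those 183 by definition. Of 1505 values for named promoters, 1273 kept direction and call. One promoter changed sign: Atp5a1 in SOM+ against bulk, at -0.017 with cyclic loess scaling. Leaving out 1 library gave 34 to 39 higher and 9 to 14 lower for SOM+ against bulk (9 without CeA bulk WT 1), 10 to 19 and 18 to 33 for region in SOM+ nuclei (10 without CeA SOM+ fear 1, 18 without cortex SOM+ control 2 or cortex SOM+ fear 2), 0 to 12 and 0 to 14 for region in bulk nuclei, and 6 to 9 and 8 to 15 for the difference between regions (8 without cortex SOM+ control 2). Fear and KO stayed at 0 to 0. Loess scaling gave 24 lower for SOM+ against bulk, 27 higher and 19 lower for region in SOM+ nuclei, and 14 higher for region in bulk nuclei. Total count scaling gave 27 higher and 18 lower for region in SOM+ nuclei and 13 higher and 2 lower in bulk nuclei. Members with no overlapping window gave 8 lower for SOM+ against bulk, 8 higher for region in SOM+ nuclei, 2 lower for region in bulk nuclei and 4 higher for the difference between regions. Without the libraries against their sex label, an alternative chosen after seeing the data, the region counts in bulk nuclei were 0 and 0 and those of the difference between regions 4 higher and 6 lower. The causes were not tested; fewer members or libraries enter the last 2 kinds.

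With the replicate block the counts were 38 higher and 14 lower for SOM+ against bulk, 16 and 31 for region in SOM+ nuclei, 8 and 4 in bulk nuclei, 12 and 19 for the difference between regions, and 0 for fear and KO, and no count moved by over 1.5 times. Each member had 1 window, so taking a gene's least covered window gave no other value. Counts of 13 to 2789 per library limit the low isoforms most, 8 members having a mean count under 100.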
